A study of Homo sapiens with 8 samples.

Results

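Genes of sterol, fatty acid and glycerolipid synthesis and of the SREBP system that controls them were followed in H1299, a long-established cell line of human non-small cell lung carcinoma, after knockdown of USF1 or of UGT1A3. The list held 46 genes, and a gene counted as measured where at least 1 array probe set was annotated with its symbol and no other. That gave 43 genes and 114 probe sets, of 18132 genes and 44988 probe sets with 1 symbol on the array. The measured genes were 7 regulators, 18 genes of sterol synthesis and 18 of fatty acid and glycerolipid synthesis. FDFT1, CYP51A1 and ACSL3 had no such probe set.

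The 8 arrays each measured total RNA of H1299 cells on the same 3′ expression array. There were 3 USF1 knockdown arrays and 3 USF1 control arrays, and 1 UGT1A3 knockdown array and 1 UGT1A3 control array. Knockdown cells were transfected with shRNAs against USF1 or UGT1A3, the labels give all arrays the same culture medium and serum, and the sources used here do not give what the control cells received. USF1 is a transcription factor that binds E-boxes, and UGT1A3 is an enzyme that joins glucuronic acid to lipophilic compounds. Each knockdown was read against its own control, and the labels do not say whether the replicates were separate cultures, so the p-values rest on the spread among these samples alone, and that spread may be technical.

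Cells match their lipid synthesis to supply through the SREBP transcription factors, which are made as precursors anchored in the endoplasmic reticulum. When sterols are low, the escort protein SCAP carries the precursor to the Golgi, where 2 proteases release the active factor, and when sterols are plentiful INSIG proteins hold SCAP back. SREBF2 mainly drives the sterol genes and SREBF1 the fatty acid genes, and in mouse liver USF1 binds the Fasn promoter together with SREBP-1.

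Promoter sequence is shown for 6 genes whose values are described below, because USF factors bind CACGTG, SREBPs bind the sterol regulatory element, and NF-Y, a partner of SREBP at sterol genes, binds CCAAT. The sequences are RefSeq, build GRCh38.p14, the 250 bases before the annotated start, 5′ to 3′ on the gene's strand. They lie at chr17:17836987-17837236 (minus strand) for SREBF1, chr22:41832855-41833104 (plus) for SREBF2, chr7:155297628-155297877 (plus) for INSIG1, chr1:155308616-155308865 (plus) for FDPS, chr11:121292521-121292770 (plus) for SC5D and chr1:43368012-43368261 (minus) for ELOVL1. Capitals mark CACGTG, TCACNCCAC, and CCAAT or its reverse complement ATTGG.
SREBF1: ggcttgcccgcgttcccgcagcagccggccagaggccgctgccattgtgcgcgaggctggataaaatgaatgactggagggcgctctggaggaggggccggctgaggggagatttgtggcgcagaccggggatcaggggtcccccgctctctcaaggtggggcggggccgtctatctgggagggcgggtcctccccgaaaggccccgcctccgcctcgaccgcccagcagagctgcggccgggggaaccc
SREBF2: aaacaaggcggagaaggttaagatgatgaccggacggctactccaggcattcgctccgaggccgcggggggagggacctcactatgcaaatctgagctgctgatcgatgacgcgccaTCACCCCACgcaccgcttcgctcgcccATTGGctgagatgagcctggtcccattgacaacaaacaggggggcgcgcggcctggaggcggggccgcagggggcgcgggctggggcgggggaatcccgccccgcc
INSIG1: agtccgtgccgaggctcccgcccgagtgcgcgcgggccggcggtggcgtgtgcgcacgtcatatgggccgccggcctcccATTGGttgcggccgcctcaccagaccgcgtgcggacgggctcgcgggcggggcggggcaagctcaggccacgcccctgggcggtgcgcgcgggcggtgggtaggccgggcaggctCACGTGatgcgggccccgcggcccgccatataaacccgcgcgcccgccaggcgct
FDPS: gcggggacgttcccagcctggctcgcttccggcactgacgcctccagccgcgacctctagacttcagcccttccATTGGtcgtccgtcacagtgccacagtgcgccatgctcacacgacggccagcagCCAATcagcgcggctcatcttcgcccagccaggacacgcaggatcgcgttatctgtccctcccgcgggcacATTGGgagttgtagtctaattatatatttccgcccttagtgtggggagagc
SC5D: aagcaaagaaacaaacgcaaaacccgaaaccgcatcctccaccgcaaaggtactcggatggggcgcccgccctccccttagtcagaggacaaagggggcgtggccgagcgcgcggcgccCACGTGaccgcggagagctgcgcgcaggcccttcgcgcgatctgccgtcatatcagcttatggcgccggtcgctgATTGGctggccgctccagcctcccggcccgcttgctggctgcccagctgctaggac
ELOVL1: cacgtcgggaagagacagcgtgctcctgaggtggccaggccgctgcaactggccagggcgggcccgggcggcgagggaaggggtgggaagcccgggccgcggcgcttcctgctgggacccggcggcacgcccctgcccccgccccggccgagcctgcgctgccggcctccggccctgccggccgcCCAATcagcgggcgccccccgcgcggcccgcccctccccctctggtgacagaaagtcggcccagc

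Over the window from 250 bases before to 50 bases after the start, which RefSeq gave for 40 of the 46 listed genes, CACGTG occurred on either strand in 5 promoters (12.5%), against 980 of 9443 tested genes (10.4%). The 5 were those of SCAP, INSIG1, SC5D, LSS and ELOVL5. The start used was the gene's annotated 5′ end for 31 of the 40, and for 24885 of all 27305 genes with a promoter. Whether the other windows change these shares was not tested. TCACNCCAC, searched on both strands, occurred in 1 of the 40 (2.50%), SREBF2, against 1.07% of tested genes. CCAAT, a motif added to the search after the values were seen, occurred on either strand in 12 of 17 sterol gene promoters (70.6%), 7 of 16 of the fatty acid class (43.8%) and 2 of 7 regulators (28.6%), against 37.1% of tested genes. None of the 3 motifs overlaps another in the stretches shown, and FDPS holds CCAAT or its complement at 3 positions. A match describes these letters in this window and is not a binding site. It does not tell which factor, if any, binds there, and CACGTG is not particular to USF1.

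Values are the deposited log2 intensities, with 1 probe set per gene, the brightest over the arrays compared. Correlations over all probe sets were 0.998 to 0.999 between replicate arrays, 0.996 to 0.997 between USF1 knockdown and USF1 control arrays and 0.995 within the UGT1A3 pair. USF1 itself read 6.06, 5.88 and 6.13 in knockdown arrays, against 6.31, 6.55 and 6.42 in control arrays, 75.6% of control on average (limma adjusted p = 0.00818). It had only 1 probe set, whose values lay not far above the dim limit of 5.63, so the size of the knockdown is uncertain. For UGT1A3, 0 probe sets carried its symbol alone and 9 carried it with others, so its knockdown could not be checked here. Of 5 genes listed as carcinoma markers, VIM, KRT18 and KRT8 were above the dim limit and KRT19 and EPCAM below it. VIM is not specific to carcinoma cells. After USF1 knockdown KRT8 rose by 0.25 (limma adjusted p = 0.00197), and VIM and KRT18 did not pass. Of 24 markers of fibroblasts, leukocytes, endothelial cells, adipocytes and hepatocytes, 7 were above the limit and none passed limma's test after USF1 knockdown (1 had an unadjusted p under 0.05). The gap between 3′ and 5′ ACTB control probe sets, a sign of RNA quality, was 0.54 to 0.58 in USF1 knockdown and 0.57 to 0.62 in USF1 control arrays.

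After USF1 knockdown, most of the sterol genes that changed rose, the regulators that changed mostly fell with SREBF1 as the exception, and the fatty acid class was split. Of 18 sterol genes 10 rose and 1 fell, of 7 regulators 1 rose and 3 fell, and of 17 tested genes of the fatty acid class 4 rose and 4 fell (limma, adjusted p under 0.05 over all tested genes). Among all 11448 tested genes 22.0% rose and 18.7% fell, 40.7% in either direction. The median log2 change was 0.12 over the sterol genes, -0.06 over the regulators and 0.01 over the fatty acid class, against 0.01 over all tested genes. Leaving out any 1 library left 7 to 9 sterol genes rising. The calls lost were those of HMGCS1, MVK, PMVK and MVD, and STARD4 was gained without USF1 control replicate 3. In RNA from a whole culture, fewer cells with a transcript and less of it per cell cannot be told apart.

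**Figure D1:**
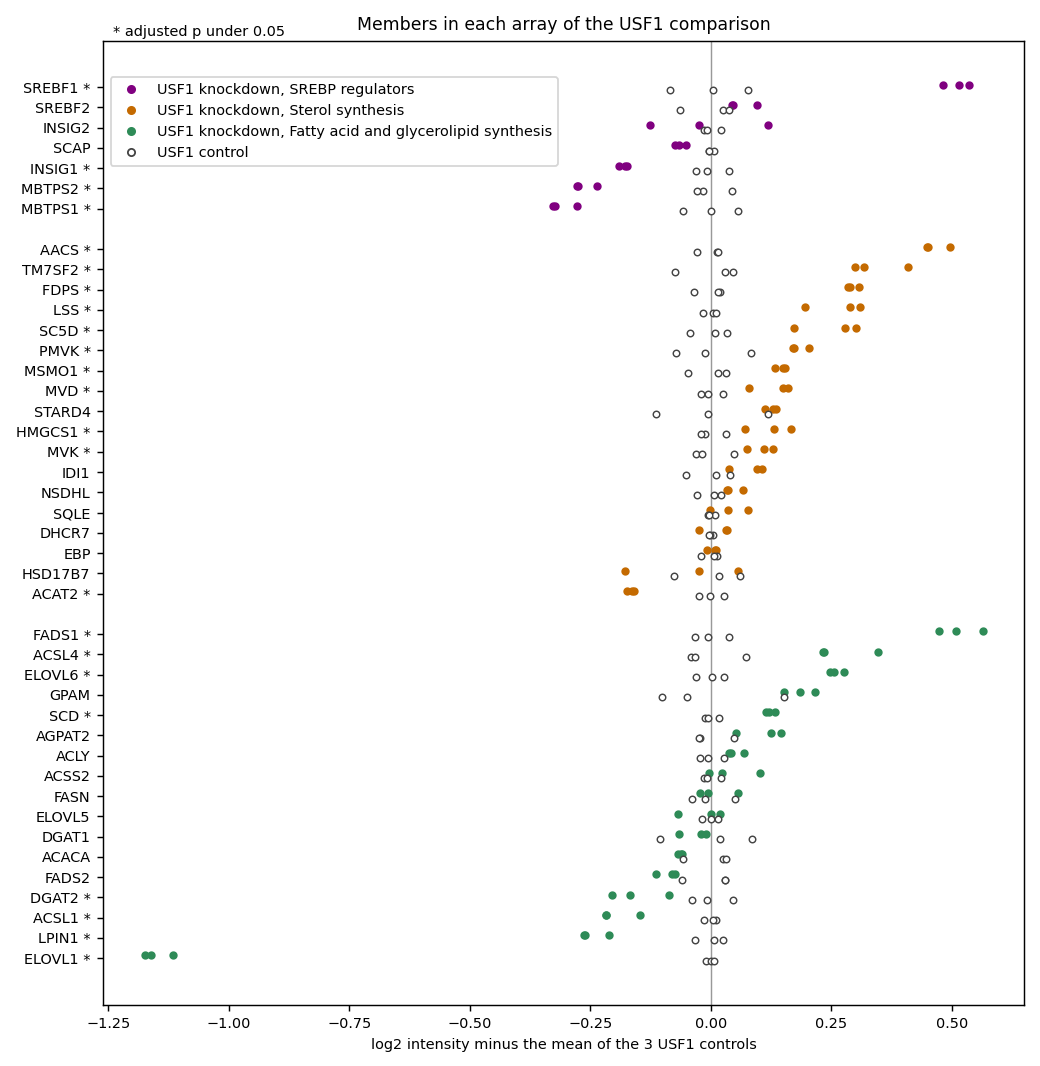
Log2 intensity of each tested gene in the 6 arrays of the USF1 comparison, minus the mean of the 3 control arrays (x axis, log2), with USF1 knockdown arrays as filled points and USF1 control arrays as open points. Asterisks mark an adjusted p under 0.05. ELOVL1 lies apart at the low end and SREBF1, AACS and FADS1 at the high end.

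Most changes were small. Past both the test and a log2 change of 0.32 either way were 4 genes that rose, SREBF1, AACS, TM7SF2 and FADS1, and 1 that fell, ELOVL1, against 4.62% of all tested genes up and 4.73% down. The knockdown and control arrays did not overlap for 31 of the 42 tested genes, 20 higher and 11 lower, against 53.6% of all tested genes in either direction. The median SD within a group was 0.05 over all genes.

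Among the regulators, SREBF1, which encodes both SREBP-1 isoforms, read 10.49, 10.47 and 10.44 in USF1 knockdown arrays, against 9.96, 10.03 and 9.87 in USF1 control arrays. The groups were far apart, and the change was 0.51 (SE 0.05, limma adjusted p = 0.000325), a 1.43-fold rise. The other SREBF1 probe sets differed. One read 7.29, 7.15 and 7.00 in knockdown arrays, against 6.89, 6.67 and 6.83 in control arrays, a rise of 0.35 (adjusted p = 0.0178). The last read 7.47, 7.47 and 7.54 in knockdown arrays, against 7.50, 7.54 and 7.55 in control arrays, with a change of -0.04 (adjusted p = 0.386). The rise therefore belonged to 2 of 3 probe sets, and the deposited annotation does not tell which SREBF1 transcripts each one reads.

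SREBF2, which encodes SREBP-2, read 8.92, 8.92 and 8.97 in knockdown arrays, against 8.81, 8.90 and 8.91 in control arrays, a change of 0.06 that did not pass (adjusted p = 0.229). SCAP, the escort of SREBP precursors, read 8.70, 8.69 and 8.71 in knockdown arrays, against 8.76, 8.77 and 8.76 in control arrays (-0.06, adjusted p = 0.091). Arrays of the groups did not overlap for SCAP, but its change missed the threshold.

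Both proteases that release the active SREBPs fell. MBTPS1, the site-1 protease, read 8.72, 8.67 and 8.67 in knockdown arrays, against 8.99, 8.93 and 9.05 in control arrays, and fell by 0.31 (SE 0.04, limma adjusted p = 0.00105). MBTPS2, the site-2 protease, read 10.69, 10.65 and 10.65 in knockdown arrays, against 10.91, 10.90 and 10.97 in control arrays, and fell by 0.26 (SE 0.03, adjusted p = 0.00104). For each protease the other probe set gave the same change to 2 decimals. These falls were to 80.7% and 83.3% of control.

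INSIG1, the sterol-dependent anchor, also fell. It read 12.20, 12.20 and 12.19 in knockdown arrays, against 12.42, 12.35 and 12.37 in control arrays, a fall to 88.2% of control (-0.18, SE 0.03, limma adjusted p = 0.00343). All 3 INSIG1 probe sets fell, by 0.18 to 0.21. INSIG2, its paralog, read 9.17, 9.32 and 9.07 in knockdown arrays, against 9.18, 9.19 and 9.22 in control arrays. The INSIG2 groups overlapped, with a change of -0.01 (adjusted p = 0.906).

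In the mevalonate part of sterol synthesis, from acetyl-CoA to farnesyl diphosphate, 6 of 8 genes rose, 1 fell and the median change was 0.13. The shares over all tested genes were 22.0% rising and 18.7% falling. AACS, which makes acetoacetyl-CoA from acetoacetate, had the largest rise of the sterol class. It read 9.95, 10.00 and 9.95 in USF1 knockdown arrays, against 9.52, 9.52 and 9.47 in USF1 control arrays, a 1.38-fold rise (0.47, SE 0.03, limma adjusted p = 0.00011). All 4 AACS probe sets rose, by 0.22 to 0.47. ACAT2, the thiolase that makes the same acetoacetyl-CoA from acetyl-CoA, was the 1 sterol gene that fell. It read 12.28, 12.28 and 12.27 in knockdown arrays, against 12.44, 12.42 and 12.47 in control arrays (-0.17, SE 0.03, adjusted p = 0.00367).

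FDPS, which makes farnesyl diphosphate, read 12.46, 12.45 and 12.44 in knockdown arrays, against 12.12, 12.18 and 12.17 in control arrays, a 1.23-fold rise (limma adjusted p = 0.000464). The groups did not overlap and lay well apart relative to their spread. Smaller rises were seen for PMVK, phosphomevalonate kinase (0.18, adjusted p = 0.0153), MVD, mevalonate diphosphate decarboxylase (0.13, adjusted p = 0.0203), HMGCS1, HMG-CoA synthase (0.12, adjusted p = 0.029) and MVK, mevalonate kinase (0.10, adjusted p = 0.0449). The other 2 PMVK probe sets stood at 0.03 and 0.06 and did not pass, and the mean of the 3 gave 0.089 (adjusted p = 0.0997). Each of these 4 calls was lost with some library left out. The highest adjusted p with 1 library left out was 0.0531 for PMVK (without USF1 control replicate 1) and 0.0676 for MVD (without USF1 control replicate 2; also lost without knockdown replicates 1 and 3 and without control replicate 3). It was 0.0891 for HMGCS1 (without USF1 control replicate 2; also lost without knockdown replicates 2 and 3 and without control replicate 1) and 0.137 for MVK (without USF1 control replicate 1; kept only without control replicate 2). IDI1, isopentenyl diphosphate isomerase, stood at 0.08 (adjusted p = 0.124). With every probe set tested on its own (limma), the other IDI1 probe set rose by 0.11 (adjusted p = 0.0347). Neither of the 2 MVK probe sets passed in that test (adjusted p = 0.0569 and 0.0942).

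From squalene to cholesterol, 4 of 9 genes rose and none fell at an adjusted p under 0.05 (limma), and the same 4 genes were the ones with an unadjusted p under 0.05. Of all tested genes 22.0% rose and 18.7% fell, 40.7% in either direction. TM7SF2, a sterol C14 reductase, read 9.26, 9.35 and 9.24 in knockdown arrays, against 8.87, 8.99 and 8.97 in control arrays, a 1.27-fold rise (0.34, SE 0.05, adjusted p = 0.00155). Of its 5 probe sets 4 rose, over a range of changes of 0.05 to 0.34. LSS, lanosterol synthase, read 9.87, 9.76 and 9.85 in knockdown arrays, against 9.54, 9.57 and 9.57 in control arrays, a rise of 0.26 (SE 0.04, adjusted p = 0.00185), and its 3 probe sets rose by 0.26 to 0.43.

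SC5D, which introduces the C5 double bond, read 10.18, 10.31 and 10.28 in knockdown arrays, against 10.01, 9.96 and 10.04 in control arrays (0.25, SE 0.04, limma adjusted p = 0.00406). All 4 SC5D probe sets rose, by 0.17 to 0.28. MSMO1, the C4 methyl oxidase, read 12.20, 12.20 and 12.18 in knockdown arrays, against 12.06, 12.00 and 12.08 in control arrays (0.15, SE 0.03, adjusted p = 0.0101). The groups of both genes were separate. The other 2 MSMO1 probe sets above the dim limit stood at 0.09 and 0.08 and did not pass.

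The other steps gave changes that did not pass. EBP, the sterol isomerase, read 10.94, 10.93 and 10.92 in knockdown arrays, against 10.91, 10.94 and 10.93 in control arrays, and the groups overlapped (adjusted p = 0.933). DHCR7, the last reductase of the pathway, had a change of 0.01 (adjusted p = 0.732), HSD17B7, a ketosteroid reductase, -0.05 (adjusted p = 0.603), NSDHL, the decarboxylating dehydrogenase, 0.05 (adjusted p = 0.253) and SQLE, squalene epoxidase, 0.04 (adjusted p = 0.379). STARD4, a soluble sterol carrier, stood at 0.13 (adjusted p = 0.128), and at 0.18 (adjusted p = 0.0237) without USF1 control replicate 3. On their own, 2 of the 5 STARD4 probe sets rose.

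In the fatty acid class, none of the 4 tested genes that lead from citrate and acetate to palmitate passed limma's test, and none had an unadjusted p under 0.05. Of all tested genes 40.7% passed in either direction. FASN, fatty acid synthase, read 11.25, 11.17 and 11.19 in USF1 knockdown arrays, against 11.18, 11.24 and 11.15 in USF1 control arrays. The groups overlapped, and the change was 0.01 (SE 0.04, adjusted p = 0.856). ACLY, ATP citrate lyase, stood at 0.05 (adjusted p = 0.206), ACSS2, acetyl-CoA synthetase, at 0.04 (adjusted p = 0.406) and ACACA, acetyl-CoA carboxylase 1, at -0.06 (adjusted p = 0.18). ACACB, the second carboxylase, was below the dim limit of 5.63 with means of 5.50 in knockdown and 5.53 in control arrays. Single dimmer probe sets did change, a second one of ACSS2 rising by 0.20 and another of ACACA falling by 0.39.

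The 8 genes of the class that changed belong to chain elongation and desaturation, activation and glycerolipid assembly. ELOVL1, which elongates saturated acyl chains to very long ones, had the largest change of all the genes described. It read 10.15, 10.19 and 10.14 in knockdown arrays, against 11.30, 11.31 and 11.32 in control arrays, a fall to 45.1% of control (-1.15, SE 0.03, limma adjusted p = 7.06e-06). The gap between the groups was far wider than the spread within either. Its other probe set fell by 1.18, and ELOVL1 ranked 13 from the lowest change of the 11448 tested genes.

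FADS1, a desaturase of polyunsaturated fatty acids, moved the other way. It read 10.84, 10.90 and 10.81 in knockdown arrays, against 10.30, 10.37 and 10.33 in control arrays, a 1.43-fold rise (0.52, SE 0.04, limma adjusted p = 0.000141), and its 3 probe sets rose by 0.38 to 0.52. ELOVL6, which elongates palmitate, read 9.13, 9.16 and 9.14 in knockdown arrays, against 8.88, 8.91 and 8.85 in control arrays (0.26, SE 0.03, adjusted p = 0.00073). For FADS2, the desaturase upstream of FADS1, the change was -0.09 (adjusted p = 0.0823, and 0.038 without USF1 control replicate 2), and for ELOVL5, an elongase of polyunsaturated chains, -0.02 (adjusted p = 0.737).

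SCD, stearoyl-CoA desaturase, depended on the probe set. The brightest read 13.78, 13.78 and 13.79 in knockdown arrays, against 13.65, 13.68 and 13.66 in control arrays, a rise of 0.12 (limma adjusted p = 0.00984), and another read 12.61, 12.65 and 12.59 in knockdown arrays, against 12.88, 12.88 and 12.84 in control arrays, a fall of 0.25 (adjusted p = 0.0016). SCD was the 1 gene of the list with probe sets that passed in opposite directions, and with its 4 probe sets averaged the change was 0.03 (adjusted p = 0.429).

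Of the acyl-CoA synthetases, ACSL4, which favours polyunsaturated fatty acids, read 11.46, 11.57 and 11.46 in knockdown arrays, against 11.30, 11.18 and 11.19 in control arrays (0.27, SE 0.05, limma adjusted p = 0.00445). ACSL1, the long-chain synthetase known for triglyceride synthesis and oxidation, read 9.12, 9.19 and 9.12 in knockdown arrays, against 9.35, 9.34 and 9.32 in control arrays (-0.19, SE 0.03, adjusted p = 0.00325). On these probe sets the 2 synthetases moved in opposite directions, each with separate groups. Both ACSL1 probe sets fell. The other ACSL4 probe set above the dim limit stood at 0.15 with overlapping groups and did not pass (limma adjusted p = 0.131).

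In glycerolipid assembly, 2 of 5 genes fell and none rose at an adjusted p under 0.05 (4 had an unadjusted p under 0.05, 2 in each direction). Over all tested genes 18.7% fell and 22.0% rose. LPIN1, a phosphatidate phosphatase, read 12.03, 11.98 and 11.98 in knockdown arrays, against 12.21, 12.27 and 12.25 in control arrays (-0.24, SE 0.03, limma adjusted p = 0.0012). DGAT2, which completes triglycerides, read 7.28, 7.16 and 7.20 in knockdown arrays, against 7.41, 7.36 and 7.33 in control arrays (-0.15, SE 0.04, adjusted p = 0.0239). The DGAT2 call was lost without knockdown replicate 2 or 3 and without control replicate 1 or 2, the highest adjusted p being 0.0812 without USF1 control replicate 1. Its other probe set stood at -0.08 and did not pass (limma adjusted p = 0.163). DGAT1, a second enzyme for the same step, had a change of -0.03 (adjusted p = 0.666). GPAM, the mitochondrial glycerol phosphate acyltransferase, stood at 0.18 (adjusted p = 0.0622, and 0.00543 without USF1 control replicate 2), and AGPAT2, the next acyltransferase, at 0.11 (adjusted p = 0.0586, and 0.0322 without knockdown replicate 2). The other AGPAT2 probe set rose by 0.16 (limma adjusted p = 0.0213), so these counts depend on the probe set.

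Over single probe sets, 106 of the 114 were above the dim limit, and of these 37 rose and 20 fell (limma), against 37.6% of all single-symbol probe sets in either direction. Of the 36 genes with more than 1 probe set above the limit, the probe sets of 3, SREBF1, ACACA and SCD, differed by more than 0.3 in their change. 

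**Figure D2:**
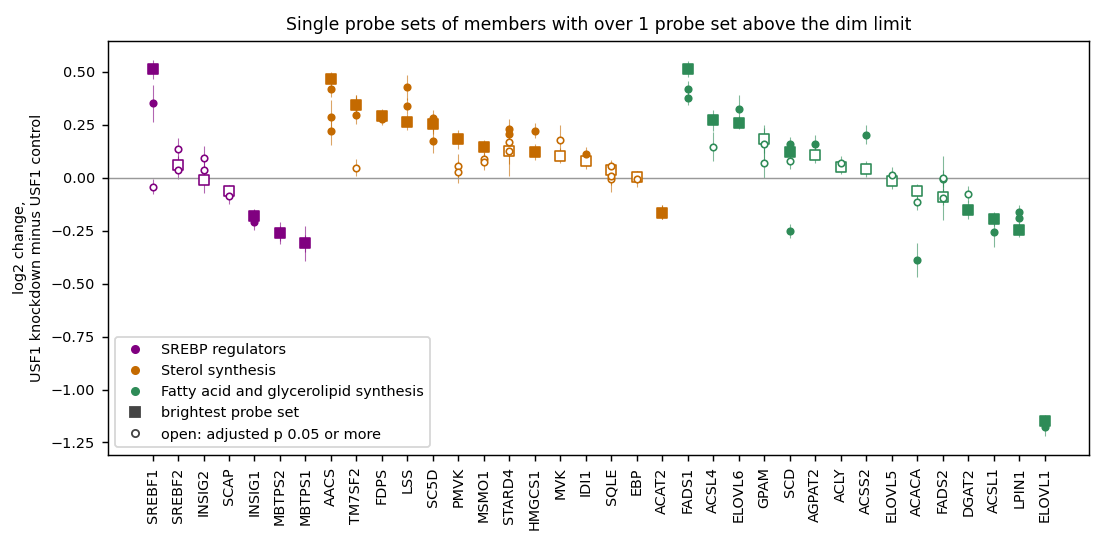
Log2 change after USF1 knockdown (y axis, knockdown minus control) for every probe set above the dim limit of genes with more than 1, with squares for the brightest probe set, circles for the others, open symbols for an adjusted p of 0.05 or more, and lines of 1 SE. The probe sets of SREBF1, ACACA and SCD spread widest, and both of ELOVL1 lie below -1.1.

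Genes next to these in the pathway were read in 5 lists, beside the 22.0% of all tested genes that rose and the 18.7% that fell (40.7% in either direction). Of 16 tested partners of SREBP turnover and transport, 1 rose and 4 fell (median change -0.004), among them UBE2G2, a ubiquitin-conjugating enzyme of endoplasmic reticulum degradation, which fell by 0.36 (limma adjusted p = 0.000548), and RNF145, a ubiquitin ligase, which rose by 0.18 (adjusted p = 0.00219). Of 14 LXR and lipogenic nuclear factors, 2 rose and 1 fell (median 0.02), with MLXIP, a glucose-sensing factor, falling by 0.16 (adjusted p = 0.00404) and NFYC, an NF-Y subunit, rising by 0.17 (adjusted p = 0.00621). All tested genes had a median of 0.01.

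Of 12 genes of the isoprenoid branches and thiolases, 3 rose and 3 fell (median -0.05), against 22.0% and 18.7% of all tested genes. DHDDS, a subunit of the enzyme that makes the dolichol precursor, read 7.50, 7.72 and 7.42 in knockdown arrays, against 8.33, 8.25 and 8.29 in control arrays, a fall to 59.6% of control (limma adjusted p = 0.000548). ACAT1, the mitochondrial thiolase, rose by 0.20 (adjusted p = 0.00117), while the cytosolic thiolase ACAT2 fell, as given above.

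Of 15 tested paralogs of the fatty acid and glycerolipid genes, 6 rose and 3 fell (median 0.10), against 22.0% and 18.7% of all tested genes. AGPAT1, a paralog of AGPAT2, read 9.26, 9.21 and 9.20 in knockdown arrays, against 9.72, 9.74 and 9.70 in control arrays, a fall to 70.8% of control (limma adjusted p = 8.59e-05). ELOVL7, another elongase, rose by 0.31 (adjusted p = 0.000404). Of 7 genes of citrate and NADPH supply, 3 rose and 1 fell (median 0.08, against the same shares), with SLC25A1, the mitochondrial citrate carrier, rising by 0.29 (adjusted p = 0.00117) and MID1IP1, a partner of acetyl-CoA carboxylase, falling by 0.23 (adjusted p = 0.00069).

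The UGT1A3 comparison had 1 array per group, so its differences have no replicate check and no test. All 43 measured genes were above the dim limit of 4.76, with 22 higher and 21 lower in the knockdown array and a median difference of 0.03, against 0.02 over 11620 genes. Past a log2 difference of 0.32, 4 were higher and 5 lower, where 11.1% of all genes were higher and 8.02% lower, and none was past 1.5-fold, where the shares were 2.15% and 1.41%. The class medians were 0.10 for the regulators, -0.02 for the sterol genes and -0.01 for the fatty acid class. Other settings turned the sign of some of these medians, which lay near 0. With each array centred on its median, the median over the 43 genes was -0.01. A gene was read on its brightest probe set in this pair, which for some genes is not the one read in the USF1 comparison.

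Of the 4 genes higher in the UGT1A3 knockdown array, 3 belong to sterol synthesis. With the mean of all probe sets per gene, 3 genes were higher, 1 of them a sterol gene, and 2 lower, none of them a regulator. TM7SF2 read 8.70 in the UGT1A3 knockdown and 8.12 in the UGT1A3 control array, a difference of 0.57. MSMO1 read 8.66 in the knockdown and 8.18 in the control array (0.48). AACS read 7.93 in the knockdown and 7.49 in the control array (0.44), while its 4 probe sets ranged from 0.02 to 0.44. The fourth gene was the carboxylase ACACB, whose probe sets differed. Its brightest read 5.96 in the knockdown and 5.50 in the control array (0.46), and another read 5.69 on both arrays.

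Of the 5 genes lower in the UGT1A3 knockdown array, FASN, FADS1 and ACSL4 belong to the fatty acid class. FASN, with the largest difference, read 6.90 in the knockdown and 7.42 in the control array (-0.52). FADS1 read 8.90 in the knockdown and 9.31 in the control array (-0.41), and for ACSL4 the values were 9.05 in the knockdown and 9.40 in the control array (-0.35). The other bright probe sets differed by less, at -0.17 and -0.30 for FADS1 and 0.02 for ACSL4. The other 2 were the factor gene SREBF1 and the mevalonate gene FDPS. SREBF1 read 7.96 in the knockdown and 8.38 in the control array (-0.42), and its other probe sets differed by -0.39 and -0.07. FDPS read 9.25 in the knockdown and 9.62 in the control array (-0.36). ELOVL1 read 10.26 in the knockdown and 10.13 in the control array, a difference of 0.12.

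Set beside the USF1 comparison, which shares no control array with this one, the sterol genes AACS, TM7SF2 and MSMO1 rose after USF1 knockdown and were past 0.32 in the UGT1A3 knockdown array too. SREBF1, FADS1, FDPS and ACSL4 rose after USF1 knockdown and were lower in the UGT1A3 knockdown array. Of the 23 genes called after USF1 knockdown, 9 had the same sign in the UGT1A3 pair on the same probe set (39.1%), against 60.4% of the 4586 called genes that were above the limit there. By class the counts were 0 of 4 regulators, 7 of 11 sterol genes and 2 of 8 of the fatty acid class.

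**Figure D3:**
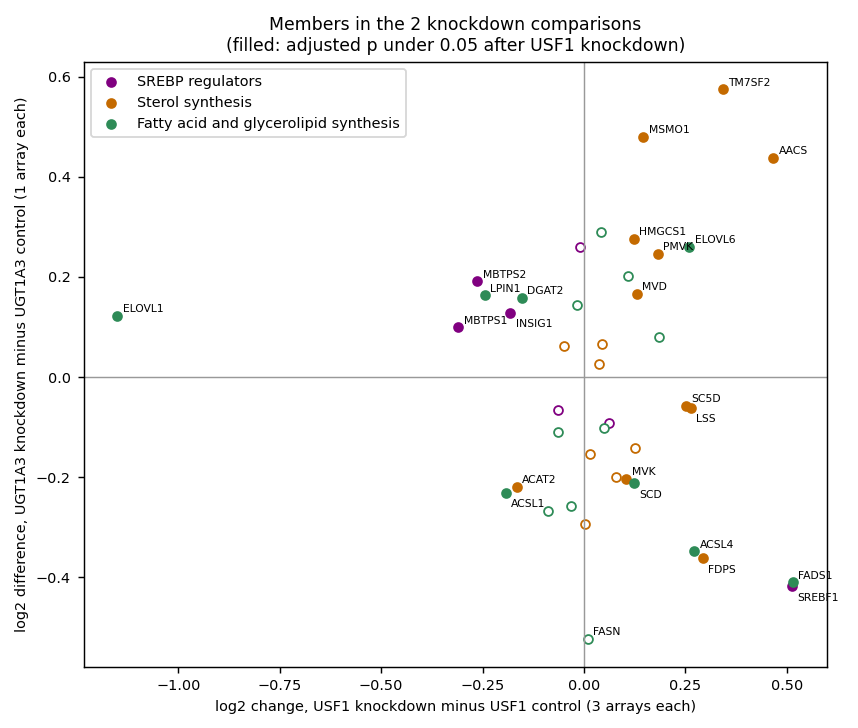
Log2 difference in the UGT1A3 pair (y axis, 1 array each) against the log2 change after USF1 knockdown (x axis, 3 arrays each) for each gene, filled where the USF1 change had an adjusted p under 0.05. AACS, TM7SF2 and MSMO1 lie at the upper right, SREBF1 and FADS1 at the lower right and ELOVL1 alone at the far left.

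Most genes of the list stood higher in the arrays of the USF1 set than in those of the UGT1A3 set. Over the 43 measured genes the median gap between the controls of the sets was 0.90 log2 units, beside a median absolute change of 0.13 after USF1 knockdown. This comparison was added after the values were seen. Each array was centred on its own median, because the deposited medians were 6.53 to 6.55 in the USF1 set and 5.59 to 5.63 in the UGT1A3 set. The gap is the mean of the 3 USF1 controls minus the 1 UGT1A3 control, so it has no test, and the set cannot be told apart from any difference in culture, extraction or array run. The 3′ to 5′ ACTB gap was 0.57 to 0.62 in USF1 controls and 0.34 in the UGT1A3 control, and its part in the result was not tested.

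The median gap was 1.10 log2 units over the 18 sterol genes, 0.76 over the 18 genes of the fatty acid class and 0.49 over the 7 regulators, against 0.07 over 11472 genes. A gap over 1 was found for 18 of the 43 genes, 11 of them sterol genes, 6 of the fatty acid class and 1 regulator, where 4.69% of all genes had one. A gap over 2 was found for 6 of the 43 and for 19 of all genes. In 31 of the 43, all 6 USF1 arrays were above both UGT1A3 arrays, against 38.9% of all genes.

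INSIG1 had the second largest gap of all genes. Its centred level was 5.66 in each of the 3 USF1 knockdown arrays and 5.88, 5.80 and 5.84 in USF1 control arrays, against 2.04 in the UGT1A3 knockdown and 1.94 in the UGT1A3 control array, a 14.8-fold gap between the controls. MSMO1, with the third largest gap, had 5.66, 5.65 and 5.65 in USF1 knockdown and 5.52, 5.45 and 5.55 in USF1 control arrays, against 2.90 in the UGT1A3 knockdown and 2.41 in the UGT1A3 control array (8.58-fold). In both genes the 2 sets were separate by far more than either knockdown moved them.

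FASN, with the fourth largest gap, had 4.71, 4.62 and 4.66 in USF1 knockdown and 4.64, 4.69 and 4.62 in USF1 control arrays, against 1.28 in the UGT1A3 knockdown and 1.83 in the UGT1A3 control array (7.07-fold). LPIN1 (6.36-fold), HMGCS1 (5.35-fold) and IDI1 (4.55-fold) followed, with ranks 6, 10 and 15 among all genes. On single probe sets the gaps were 3.09 to 3.89 for INSIG1, 2.22 to 3.10 for MSMO1, 2.42 to 3.46 for HMGCS1, 2.19 to 2.60 for IDI1, 1.64 to 2.67 for LPIN1 and 1.32 to 3.61 for SCD.

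**Figure D4:**
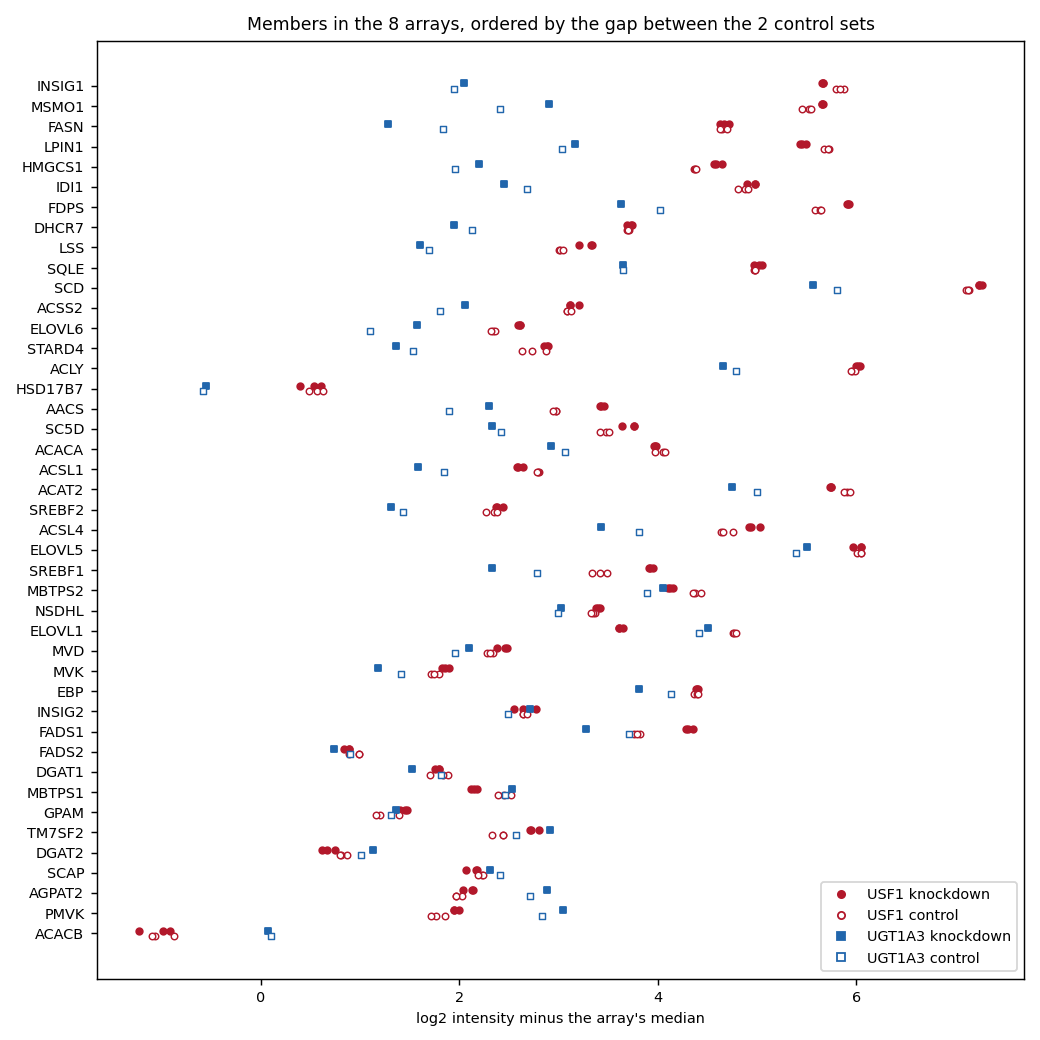
Log2 intensity minus the array's median (x axis) of each gene in all 8 arrays, circles for the USF1 set and squares for the UGT1A3 set, filled for knockdown and open for control, ordered by the gap between the controls. INSIG1, MSMO1 and FASN at the top are several units higher in the USF1 set, while PMVK at the bottom is lower there, as is ACACB, whose mean was under the dim limit in the USF1 set.

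Not all of the genes followed. In 5 of the 43, all 6 USF1 arrays were below both UGT1A3 arrays: PMVK, AGPAT2, SCAP, DGAT2 and ACACB. PMVK had a gap of -1.06 (its other probe sets lay between this and -0.45), where 0.811% of all genes had a gap below -1. AGPAT2 had a gap of -0.72, SCAP of -0.19 and DGAT2 of -0.18. ACACB was above the dim limit in the UGT1A3 set alone, so its lower place in the USF1 set is not a result and no gap is given for it. The counts and medians over the 43 genes and over the fatty acid class include ACACB. TM7SF2 stood at -0.17, GPAM at -0.06, MBTPS1 at -0.01 and DGAT1 at 0.00, with overlapping arrays.

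The SREBP system was itself uneven, since INSIG1 carried the widest gap while the other 6 regulators each stayed within 1 unit on their brightest probe set. Over single probe sets the gaps ran up to 1.55 for SREBF1 (lowest 0.28) and up to 1.22 for SREBF2 (lowest 0.64).

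**Figure D5:**
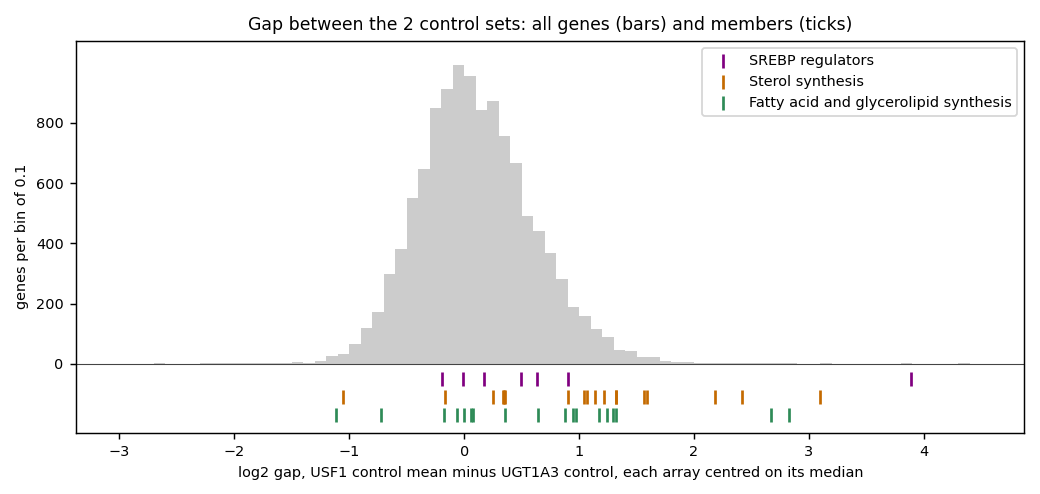
Number of genes per bin of 0.1 (bars) by the log2 gap between the USF1 control mean and the UGT1A3 control, each array centred on its median (x axis), with ticks below for the regulators, sterol genes and fatty acid class. All genes centre near 0.07, and the 6 ticks beyond 2 are INSIG1, MSMO1, FASN, LPIN1, HMGCS1 and IDI1.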

How the data were processed

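Total RNA of 8 H1299 samples was measured on Affymetrix PrimeView arrays. The authors deposited 1 table of log2 intensities for 49395 probe sets, a log base taken from their range. The submitters' processing notes name MAS5 with no role, and the sources used here do not state how arrays were scaled. Probe sets were named through the platform annotation: 44988 had 1 gene symbol, 1832 several and 2473 none.

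Each gene was represented by its brightest probe set over the arrays compared. A dim limit at percentile 40 of all probe set means was applied to genes (5.63 in the USF1 set, 4.76 in the UGT1A3 set), and those below it were not tested. USF1 knockdown (3 arrays) was compared with USF1 control (3 arrays) with limma 3.58.1 in R 4.3.3 (lmFit and eBayes, two-sided, Benjamini-Hochberg over 11448 genes, threshold 0.05), tested on simulated data first. A change is the mean log2 of knockdown minus that of control. The UGT1A3 pair, 1 array each, was described at a log2 difference of 0.32 and at 1.5-fold. The number of arrays limits the precision.

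The members, gene lists and tests were chosen with earlier results of these data known. Values were given per array for all regulators, for up to 10 sterol and up to 10 fatty acid genes with the smallest adjusted p, and for examples with the largest p; up to 2 genes with the smallest adjusted p were named per pathway list, and the gap between the sets was ranked after its values were seen. Alternatives covered normalization, the dim limit, an added intensity of 16, the probe set per gene, the variance prior, a replicate block and each replicate left out. Promoter sequences are from RefSeq, GRCh38.p14.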

Additional observations from a re-analysis of the deposited data

How the results depend on the processing

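No change called after USF1 knockdown turned its direction under the 14 alternatives run for single genes, and 17 of the 23 called genes kept their call in each. MVK lost it in 9, HMGCS1 and MVD in 5, DGAT2 in 6 of 13, PMVK in 2 and SCD in 1. Single probe sets are not among these 14, and there 1 SCD probe set fell by 0.25 (limma adjusted p = 0.0016), against the called rise. With every probe set on its own, 37 of the 106 rose and 20 fell (regulators 2 and 7, sterol 25 and 3, fatty acid 10 and 10), with medians of 0.070 over all and 0.14 over the sterol probe sets. With the mean of all probe sets per gene the sterol median was 0.11, and without single replicates 0.10 to 0.13. With the replicate number as a block, 14 genes of the list rose and 8 fell, and MVK alone lost its call (adjusted p = 0.071); over all genes 2305 rose and 1928 fell. Same-numbered arrays correlated at -0.10, 0.20 and 0.09 in their deviations, so the numbers were not taken to pair them. Without a dim limit 1995 of all genes rose and 1649 fell.

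In the UGT1A3 pair, the mean of all probe sets gave 2 genes lower past 0.32 (0 regulators, 1 of the fatty acid class) and 1 sterol and 2 fatty acid genes higher, with medians of 0.055 over all, 0.055 for regulators, 0.045 for sterol and 0.028 for fatty acid genes. With each array centred on its median, 2 sterol genes were lower and the medians were -0.0051 over all, -0.047 (sterol) and -0.042 (fatty acid). At a dim limit of the 60th percentile they were -0.058 over all, -0.058 (sterol) and -0.10 (fatty acid), with 0 fatty acid genes higher. For the gap between the sets, alternatives chosen after seeing the data gave medians of 0.82 over all, 0.41 for regulators, 1.05 for sterol and 0.68 for fatty acid genes under quantile normalization, and 0.91 for fatty acid genes at the 60th percentile. The cause of these shifts was not tested. With 3 arrays per group at most, no gene could be screened for a sample standing apart.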
